A study of Caenorhabditis elegans with 8 samples.

Results

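The 10 genes *dpy-2*, *dpy-3*, *dpy-5*, *dpy-7*, *dpy-8*, *dpy-10*, *dpy-13*, *rol-6*, *sqt-1* and *sqt-3* encode cuticle collagens that shape the body of *C. elegans*. They were picked by gene name out of 46926 genes in the count table, and all 10 were among the 16808 genes with enough counts to be tested. The cuticle is a collagen matrix that the epidermis secretes anew before each molt, so the RNA of its collagens comes and goes with the molting cycle. Mutants of these genes are short and fat (dumpy), twisted and rolling (roller) or stunted with a squat shape. The products of *dpy-2*, *dpy-3*, *dpy-7*, *dpy-8* and *dpy-10* build the circumferential furrows of the cuticle, those of *dpy-5* and *dpy-13* lie between the furrows, and *rol-6*, *sqt-1* and *sqt-3* are known from their roller and squat alleles.

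The study asked whether loss of *smrd-1*, the worm counterpart of the chromatin remodeler SMARCAD1, lessens tau toxicity, and these libraries compare RNA of animals that carry no tau transgene. Polyadenylated RNA of whole animals was sequenced in 8 libraries. Of these, 4 were titled smrd1Null and 4 were titled Control. The paper names the strains compared as *smrd-1 Δ#1*, a CRISPR-Cas9 deletion of exons 1 to 6 of *smrd-1*, and non-Tg, the wild-type strain N2. Libraries are called labelled *smrd-1 Δ#1* or non-Tg below in this sense. Both were kept at 20 °C on OP50 bacteria. The extraction protocol names L4 larvae, the last larval stage, whereas the design text speaks of adults. The deletion is 1 allele, and nothing says whether the replicates were separate cultures, so the p-values measure the spread between these samples, which may be technical.

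Each library held between 74704022 and 78008833 counts. Markers of epidermis, body wall muscle, pharynx, intestine, neurons, germ line, oocytes and sperm were above 0 in every library. The deleted gene was checked in every library. *smrd-1* counts were 6369, 6252, 6874 and 6330 in replicates 1 to 4 labelled *smrd-1 Δ#1*, against 3638, 2997, 3876 and 4073 in those labelled non-Tg. The level of *smrd-1* averaged 85.1 ± 4.35 CPM (counts scaled to library size with TMM factors) in the libraries labelled *smrd-1 Δ#1* and 47.9 ± 3.93 CPM in those labelled non-Tg (SD, n = 4 each). The log2 fold change was 0.83 (standard error 0.0813, edgeR adjusted p = 0.00889), and without *smrd-1 Δ#1* replicate 1 the adjusted p from edgeR was 0.0574. All 4 libraries titled smrd1Null thus had more *smrd-1* counts. The count covers the whole gene and does not separate the deleted exons from those the allele keeps, so it neither shows nor checks the deletion, and whether the counts came from the kept exons was not tested. The methods state that strain genotypes were checked by PCR with sequencing or restriction digests where no phenotype was obvious. Groups are therefore named by their labels, and every direction below holds only if the labels do.

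In the WBcel235 genome, the furrow collagen genes *dpy-10* and *dpy-2* are neighbours on chromosome II. *dpy-10* lies on the minus strand at chrII:6710149-6712227 and *dpy-2* on the plus strand at chrII:6714292-6715971, so they point away from each other with 2064 bases between them. The other furrow collagens are on the minus strand of X, with *dpy-3* at chrX:2144605-2145647, *dpy-8* at chrX:5148804-5150476 and *dpy-7* at chrX:7536467-7537792. *dpy-5* (chrI:5432197-5433051, minus strand) and *dpy-13* (chrIV:4235614-4236710, plus strand) are each alone on their chromosome within the set. *rol-6* (chrII:8733050-8734239, plus strand) and *sqt-1* (chrII:11336693-11337837, minus strand) share chromosome II with the *dpy-2* and *dpy-10* pair, and *sqt-3* is at chrV:12352745-12354320 on the plus strand. All are small genes. Their exons held between 855 bases (*dpy-5*, a single exon) and 1593 bases (*dpy-10*, 5 exons), and the proteins are 284 (*dpy-5*) to 452 residues (*dpy-8*) long.

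The furrow collagens were the least abundant of the set and *dpy-13* was the most abundant. Levels of different genes were compared as CPM per kilobase of exon. On that scale *dpy-13* averaged 1276 ± 201 in *smrd-1 Δ#1* and 1228 ± 413 in non-Tg libraries (SD, n = 4 each here and in the next 2 sentences). *dpy-5* followed with 1144 ± 211 against 1076 ± 412, and *sqt-3* with 984 ± 157 against 981 ± 533. *sqt-1* averaged 654 ± 105 against 625 ± 340, and *rol-6* 317 ± 56.1 against 326 ± 159. Every furrow collagen was below *rol-6* in all 8 libraries. Among them *dpy-7* was the highest, with 142.1 ± 88.8 CPM per kilobase in *smrd-1 Δ#1* and 179 ± 52.9 in non-Tg libraries (SD, n = 4 each), and *dpy-10* the lowest, with 57.6 ± 37.6 against 74.3 ± 25.2.

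The order of neighbours was not equally firm. *dpy-13* exceeded *dpy-5* in 8 of 8 libraries, although the spread between libraries was larger than the difference of their means. *dpy-5* exceeded *sqt-3* in 6 of 8 libraries, *dpy-3* exceeded *dpy-2* in 7 of 8, and *dpy-2* exceeded *dpy-8* in 5 of 8, so *dpy-2* and *dpy-8* cannot be ranked. The low place of *dpy-10* touches on how reads were counted. Of its exon bases, 780 (49.0%) are shared with T14B4.19, a gene on the same strand that had 0 counts in every library, and reads falling on more than 1 gene were not counted. Per kilobase of unshared exon, *dpy-10* averaged 112.9 CPM in *smrd-1 Δ#1* and 146 CPM in non-Tg libraries, against 114 and 147 CPM per kilobase for *dpy-2*. *dpy-8* shares 109 exon bases with C31H2.14 on the other strand, and *sqt-3* shares 144 with a non-coding RNA gene that had 0 counts. Strand was not used in counting, so these reads cannot be assigned.

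**Figure D1:**
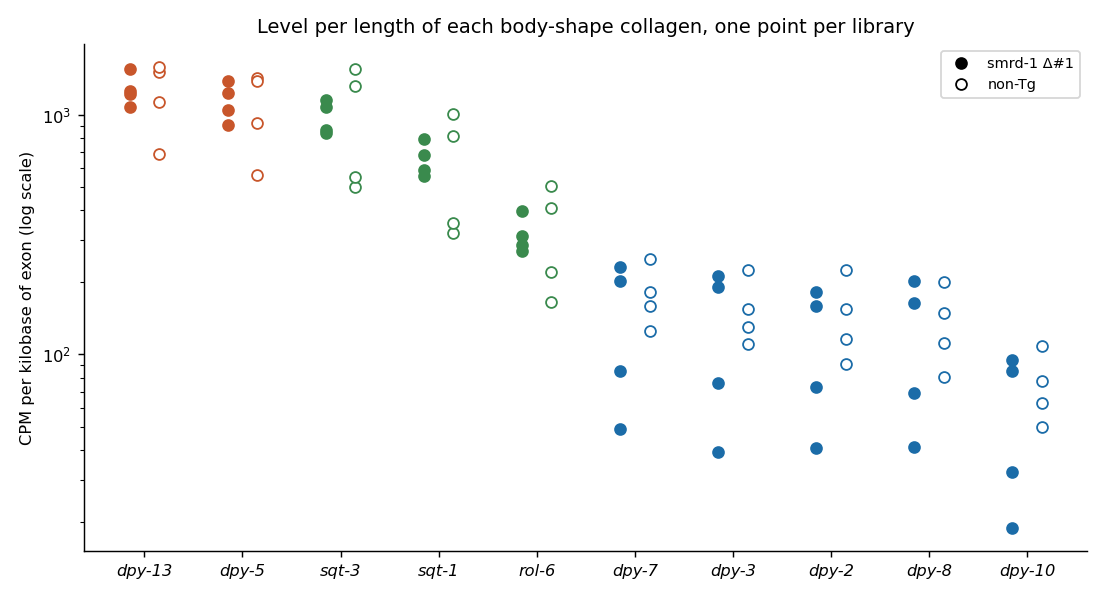
Level of each body-shape collagen in CPM per kilobase of exon on a log scale, with 1 point per library, filled for *smrd-1 Δ#1* (left) and open for non-Tg (right). *dpy-13*, *dpy-5* and *sqt-3* lead, and the 5 furrow collagens lie below *rol-6*, with the *smrd-1 Δ#1* libraries of each furrow collagen parted into a higher and a lower pair.

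The furrow collagens varied most among the libraries labelled *smrd-1 Δ#1*. The *dpy-7* product is a furrow collagen whose promoter is widely used to drive epidermal expression. Its level was 233, 266, 55.9 and 97.6 CPM in *smrd-1 Δ#1* replicates 1 to 4, against 183, 143, 209 and 287 CPM in non-Tg replicates 1 to 4. Replicates 3 and 4 of *smrd-1 Δ#1* were thus the lowest of the 8 libraries, and the non-Tg values lay on both sides of replicates 1 and 2 of *smrd-1 Δ#1*. *dpy-2*, whose loss gives dumpy animals that can also roll, had 211, 240.2, 53.7 and 97.1 CPM in *smrd-1 Δ#1*, against 154, 121, 204 and 297 CPM in non-Tg libraries. *dpy-10*, the gene beside it and a common marker in genome editing because its mutants are easy to see, had 135, 150.3, 30.1 and 51.5 CPM in *smrd-1 Δ#1*, against 99.6, 78.9, 123 and 172 CPM in non-Tg libraries. In both genes the same libraries were lowest.

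The furrow collagen *dpy-3* was at 183, 204, 37.7 and 72.7 CPM in the *smrd-1 Δ#1* libraries, against 125, 106, 149 and 217 CPM in the non-Tg libraries. For *dpy-8*, the furrow collagen with the longest protein of the set, the levels were 247, 306, 62.4 and 105 CPM in *smrd-1 Δ#1*, against 168, 122, 225 and 302 CPM in non-Tg. In each of the 5 furrow collagens, *smrd-1 Δ#1* replicate 3 was the lowest library and *smrd-1 Δ#1* replicate 4 the next, and the labelled groups overlapped. In RNA of whole animals, fewer cells of a type and less RNA per cell cannot be told apart.

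*dpy-5* and *dpy-13* took another course. *dpy-5* had 774, 895, 1054 and 1187 CPM in *smrd-1 Δ#1*, against 480.2, 791, 1224 and 1184 CPM in non-Tg libraries. *dpy-13* had 1066, 1204, 1240 and 1539 CPM in *smrd-1 Δ#1*, against 677, 1121, 1494 and 1567 CPM in non-Tg libraries. Non-Tg replicate 1 was the lowest library for both, and in both groups replicates 3 and 4 were above replicates 1 and 2.

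The roller and squat collagens were even across the libraries labelled *smrd-1 Δ#1* and spread out in the others. *rol-6*, whose dominant alleles turn animals into rollers and serve as a transgenic marker, had 295, 341, 312 and 432 CPM in *smrd-1 Δ#1*, against 180 (replicate 1), 242, 446 and 551 CPM in non-Tg libraries. *sqt-1*, a collagen that different alleles make roller or dumpy, had 582, 707, 615 and 826 CPM in *smrd-1 Δ#1*, against 336, 371, 851 and 1050 CPM in non-Tg libraries. *sqt-3*, which needs the protease DPY-31 for its processing, had 1193, 1531, 1227 and 1644 CPM in *smrd-1 Δ#1*, against 714, 785, 1879 and 2202 CPM in non-Tg libraries. For all 3 genes the *smrd-1 Δ#1* libraries lay between the lower non-Tg pair (replicates 1 and 2) and the higher non-Tg pair (replicates 3 and 4).

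**Figure D2:**
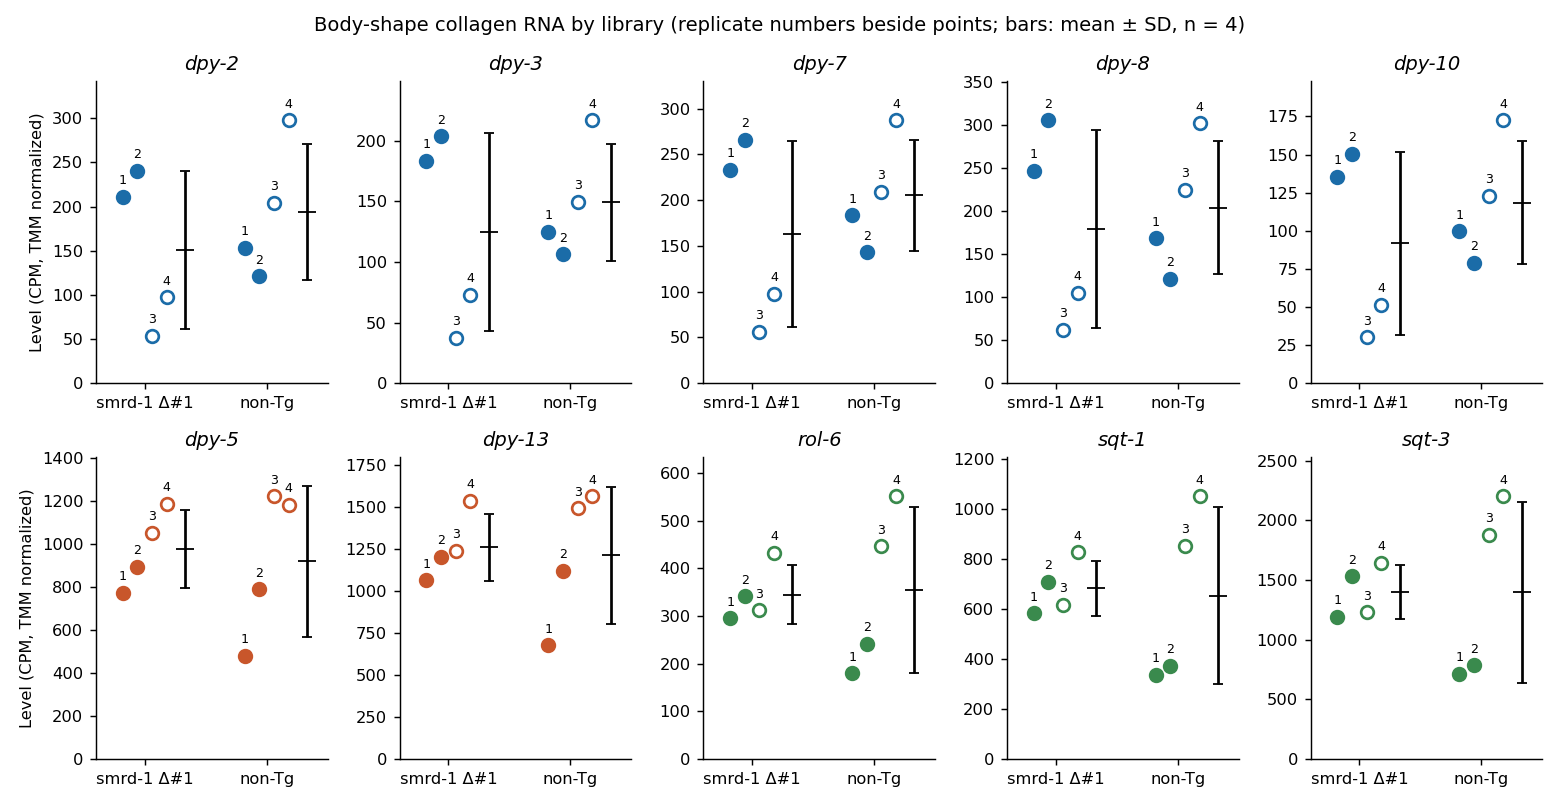
Level of each body-shape collagen (CPM after TMM scaling, vertical axis) in every library, with replicate numbers beside the points, filled for replicates 1 and 2 and open for replicates 3 and 4, and the mean ± SD (n = 4) beside each group. In the top row (furrow collagens) *smrd-1 Δ#1* replicates 3 and 4 sit lowest, for example 55.9 and 97.6 CPM for *dpy-7*, while in *rol-6*, *sqt-1* and *sqt-3* the non-Tg replicates 1 and 2 do.

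Between the labelled groups, edgeR's quasi-likelihood test called 0 of the 10 body-shape collagens at an adjusted p of at most 0.05, where 0.155% of all genes tested were called. No member had an unadjusted p under 0.05, against 7.74% of all genes tested, and DESeq2 also called 0 of the 10 (1.34% of all genes it tested were called). With the replicate sets described below as a covariate, edgeR called 0 of the 10 and 5.53% of all genes tested. That fit gives both labels the same shift between the sets. It cannot take up a division that runs in opposite directions in the labels, and the sets were read from these values. In 0 of the 10 did the groups stand apart, against 5.2% of all genes tested. The median log2 fold change was -0.11 over the 10 members and -0.0082 over all genes tested.

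The 5 furrow collagens had log2 fold changes below 0, as had 8641 of the 16808 genes tested. The largest in size were *dpy-10* at -0.37 (standard error 0.490, edgeR adjusted p = 0.810) and *dpy-2* at -0.37 (standard error 0.468, edgeR adjusted p = 0.804). *dpy-7* was at -0.33, *dpy-3* at -0.26 and *dpy-8* at -0.18. Their intervals were wide, and the 95% interval of *dpy-10* reached from -1.48 to 0.75 and that of *dpy-8* from -1.30 to 0.93. The other members had log2 fold changes near 0, at 0.088 for *dpy-5* (standard error 0.284), 0.055 for *dpy-13* (standard error 0.250), -0.040 for *rol-6* (standard error 0.331), 0.065 for *sqt-1* (standard error 0.361) and 0.0040 for *sqt-3* (standard error 0.364), with edgeR adjusted p-values from 0.918 to 0.997. The intervals of *dpy-13*, from -0.51 to 0.62, and *sqt-3*, from -0.82 to 0.83, do not show that these genes were alike in both groups. Leaving out 1 library was enough to change the sign for *dpy-3*, which was at 0.023 without *smrd-1 Δ#1* replicate 3, and for *dpy-8*, which was at 0.086 without that library and at 0.067 without non-Tg replicate 4.

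**Figure D3:**
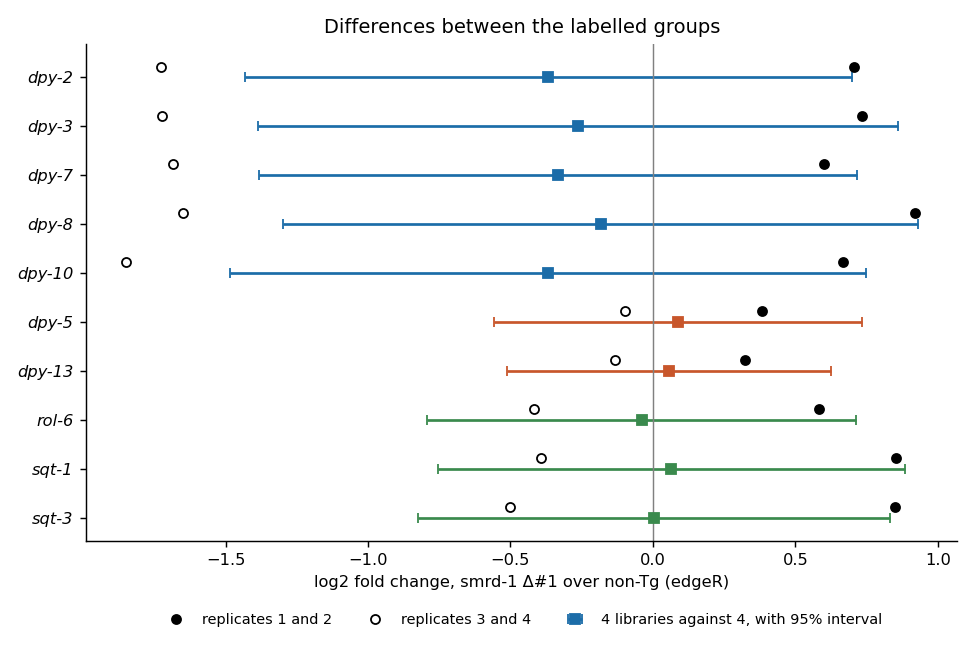
Log2 fold change of *smrd-1 Δ#1* over non-Tg libraries for each body-shape collagen from edgeR (squares with 95% intervals, 4 libraries against 4), and the same difference computed within replicates 1 and 2 (filled circles) and within replicates 3 and 4 (open circles). Every interval crosses 0, while for *dpy-10* the circles lie at 0.67 and -1.85.

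The libraries of each label also fell into 2 sets. Earlier work on these data found that replicates 1 and 2 of each group differ from replicates 3 and 4 in many genes. The division was read from the values and is no condition of the experiment, so it is described here with no test of its own. In the furrow collagens it ran in opposite directions in the labelled groups. Both *smrd-1 Δ#1* replicates 3 and 4 were below both *smrd-1 Δ#1* replicates 1 and 2 in 5 of 5 furrow collagens, with means lower by a factor of 2.99 (*dpy-2*) to 3.51 (*dpy-3*), a direction seen without overlap in 35.4% of all genes tested. In the non-Tg group both replicates 3 and 4 were above both replicates 1 and 2 in 5 of 5, by a factor of 1.52 (*dpy-7*) to 1.82 (*dpy-2* and *dpy-8*), as in 32.6% of all genes tested. The combination of both was found in 3.64% of all genes tested. *dpy-5* and *dpy-13* were higher without overlap in *smrd-1 Δ#1* replicates 3 and 4 than in replicates 1 and 2, as were 35.3% of all genes tested, and *rol-6*, *sqt-1* and *sqt-3* overlapped there while standing 2.37 to 2.72 times as high in non-Tg replicates 3 and 4 as in 1 and 2.

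The difference between the labels turned with the replicate set. Within replicates 1 and 2 all 5 furrow collagens were higher in *smrd-1 Δ#1* than in non-Tg, by a factor of 1.53 (*dpy-7*) to 1.90 (*dpy-8*), a direction without overlap in 28.5% of all genes tested. Within replicates 3 and 4 all 5 were lower in *smrd-1 Δ#1*, at 0.276 (*dpy-10*) to 0.317 (*dpy-8*) of the non-Tg mean, as in 31.2% of all genes tested. *rol-6*, *sqt-1* and *sqt-3* turned the same way with smaller steps, at 1.51 to 1.82 times the non-Tg mean within replicates 1 and 2 and 0.704 to 0.758 of it within replicates 3 and 4. This turn, with no overlap in either set, was shown by 8 of the 10 members and by 6.31% of all genes tested. In *dpy-5* and *dpy-13* the labels overlapped within both sets.

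The sets also parted the members by how far libraries of 1 label lay from each other. The SD of the log2 level over the 4 *smrd-1 Δ#1* libraries was 1.01 (*dpy-2*) to 1.16 (*dpy-3*) in the furrow collagens, against 0.42 (*dpy-7*) to 0.56 (*dpy-8*) over the 4 non-Tg libraries. The other 5 members were the reverse, with 0.22 (*dpy-13*) to 0.27 (*dpy-5*) in *smrd-1 Δ#1* and 0.56 (*dpy-13*) to 0.84 (*sqt-3*) in non-Tg. The median over all genes tested was 0.28 in both groups, and 3.9% of all genes tested had an SD above 1 in *smrd-1 Δ#1*, as did 5 of 5 furrow collagens. In non-Tg it was above 1 in 5.73% of all genes tested and in 0 of the 10 members.

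**Figure D4:**
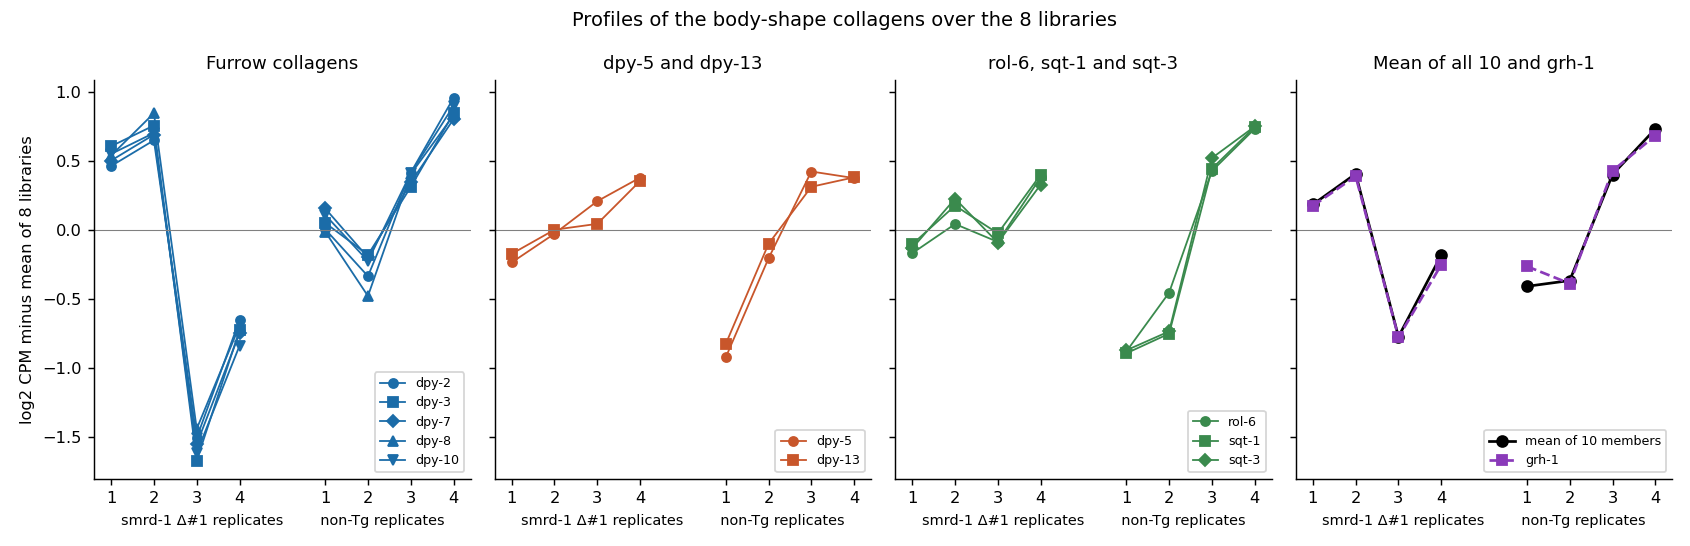
Log2 CPM of each body-shape collagen minus its own mean over the 8 libraries, by replicate within *smrd-1 Δ#1* (left in each panel) and non-Tg (right), for the furrow collagens, for *dpy-5* and *dpy-13*, for *rol-6*, *sqt-1* and *sqt-3*, and for the mean of the 10 beside *grh-1*. Lines within a panel run close together, with *rol-6* apart at non-Tg replicate 2, and the panels differ most at *smrd-1 Δ#1* replicates 3 and 4, where the furrow collagens lie far below their own mean and the others do not.

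Ratios within a subset varied less over the 8 libraries than the levels themselves. The subsets were set up with values of these data known, so this is a description only. All ratios here are of CPM per kilobase of exon, not of CPM. The ratio of *dpy-2* to *dpy-10* was 1.88 to 2.27 in *smrd-1 Δ#1* and 1.85 to 2.08 in non-Tg libraries. Its size depends on the exon bases of *dpy-10* that are shared with another gene. Per kilobase of unshared exon *dpy-10* averaged 112.9 CPM in *smrd-1 Δ#1* and 146 CPM in non-Tg, against 114 and 147 CPM for *dpy-2*. *sqt-3* exceeded *sqt-1* by a factor of 1.46 to 1.62 over the 8 libraries, but *rol-6* by a wider 2.49 to 3.44, and *sqt-1* exceeded *rol-6* by 1.602 to 2.16. *dpy-13* exceeded *dpy-5* by 1.02 to 1.23. Between subsets the ratio shifted. The CPM per kilobase of exon of each subset were summed for this. For each 100 such units of *dpy-5* and *dpy-13* together, the furrow collagens had 40.4, 40.7, 7.58 and 11.4 in *smrd-1 Δ#1* replicates 1 to 4, against 46.5, 22.2, 24.4 and 33.96 in non-Tg replicates. *rol-6*, *sqt-1* and *sqt-3* had 84.0, 91.3, 69.9 and 79.6 for each 100 in *smrd-1 Δ#1*, against 79.3, 54.9, 86.5 and 103 in non-Tg. A ratio within a library shows unequal change and does not say which gene changed.

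Some genes outside the set followed its mean profile closely. Likeness was measured as the root mean square difference over the 8 libraries between a gene's centred log2 level and the mean of the 10 members. *grh-1*, which encodes a Grainyhead transcription factor of epidermal barrier genes, was nearest with a difference of 0.061, where the median of all genes tested was 0.56. Its level was 52.8, 61.3, 27.3 and 39.3 CPM in *smrd-1 Δ#1*, against 39.0, 35.7, 63.0 and 75.2 CPM in non-Tg libraries. *Y65B4BM.3* (0.079) and *Y57A10A.24* (0.11) followed. The individual members lay farther from their own mean, at 0.38 (*dpy-2*) to 0.51 (*dpy-5*), since it averages the different courses of the subsets. The points share libraries and depth, and the measure says nothing of shared function or control.

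Genes around the collagens were read from 6 lists of 63 genes, all of which were tested. edgeR called 0 of the 63 (0.155% of all genes tested), and 3 had an unadjusted p under 0.05 (7.74% of all genes tested). DESeq2 called 1, *dpy-17* (1.34% of all genes it tested). Among 11 other cuticle collagens named for dumpy, roller, squat, long or blister phenotypes, 9 had a log2 fold change above 0 and 2 below, with a median of 0.10. Of the 16808 genes tested, 8167 were above 0 and 8641 below. The lowest p was that of *dpy-17*, a low-level cuticle collagen with 2.86, 3.72, 3.49 and 3.55 CPM in *smrd-1 Δ#1*, against 1.18, 1.096, 2.21 and 2.27 CPM in non-Tg libraries. These groups did not overlap, and the log2 fold change was 1.01 (standard error 0.284, edgeR adjusted p = 0.449). DESeq2 gave an adjusted p of 0.0359, and the range over all alternatives was 0.0306 to 0.860. *dpy-14*, next in p, was near the limit of counting with 0.0996 to 0.437 CPM in *smrd-1 Δ#1* and 0.161 to 0.618 CPM in non-Tg. Of the list, *dpy-9* is the remaining gene known for furrow loss, and is named because of its values. Its mean in replicates 3 and 4 was lower than in replicates 1 and 2 by a factor of 3.42 in *smrd-1 Δ#1* and higher by a factor of 1.599 in non-Tg, and its log2 fold change between the labels was -0.36 (standard error 0.480, edgeR adjusted p = 0.809).

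Collagen chains are hydroxylated, folded, trimmed and cross-linked on their way into the cuticle. Of 13 genes for these steps edgeR called 0, and the median log2 fold change was -0.04. The lowest p-values belonged to *phy-3*, a prolyl 4-hydroxylase subunit, at a log2 fold change of 0.65 (edgeR adjusted p = 0.670), and *cyn-9*, a cyclophilin, at 0.27 (edgeR adjusted p = 0.689). In the 10 regulators of the molting cycle and its timing, 8 had a log2 fold change below 0 and the median was -0.24. Of the 16808 genes tested, 8641 were below 0. The nuclear receptor gene *nhr-25* had 9.73, 5.24, 3.83 and 4.61 CPM in *smrd-1 Δ#1*, against 15.8, 20.2, 6.04 and 5.55 CPM in non-Tg, at -1.02 (edgeR adjusted p = 0.646), and the epidermal GATA factor gene *elt-3* was at -0.29 (edgeR adjusted p = 0.721). For *elt-3* the adjusted p over the alternatives ran from 0.0318 to 0.999.

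Loss of furrow collagens is known to switch on osmotic, antimicrobial and detoxification genes in the epidermis. Of 16 genes of that response or its control, 8 had a log2 fold change above 0 and 8 below, edgeR called 0, and the median was -0.01. Since the list mixes both kinds of gene, this count and median are no measure of the response. Within replicates 3 and 4, 7 of the 16 were higher without overlap in *smrd-1 Δ#1* and 4 lower. Of the 16808 genes tested, 5155 were higher and 5242 lower there. *gst-4*, a glutathione S-transferase used as a reporter of oxidative stress, had 25.2, 24.7, 19.6 and 21.2 CPM in *smrd-1 Δ#1*, against 16.3, 20.2, 15.5 and 16.2 CPM in non-Tg, and its log2 fold change was 0.41 (standard error 0.127, edgeR adjusted p = 0.510, and 0.0343 to 0.887 over the alternatives). *sta-2*, a STAT-like factor of the antimicrobial response, was at -0.28 (edgeR adjusted p = 0.678).

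Of 10 molting and apical matrix genes, 4 divided by replicate set in the same directions as the furrow collagens, being lower without overlap in *smrd-1 Δ#1* replicates 3 and 4 than in 1 and 2 and higher in those of non-Tg (3.64% of all genes tested). These were *noah-1*, *noah-2*, *qua-1* and *lpr-3*, named because of their values. For *qua-1* the sizes were unlike those of the furrow collagens, lower by a factor of 1.35 in *smrd-1 Δ#1* and higher by 3.08 in non-Tg. Taken singly, 7 of the 10 were lower in *smrd-1 Δ#1* replicates 3 and 4 (35.4% of all genes tested), and another selection of 7 was higher in non-Tg replicates 3 and 4 (32.6%). The list summed to 4638, 5153, 1657 and 2442 CPM in *smrd-1 Δ#1*, against 3699, 3014, 4139 and 5182 CPM in non-Tg libraries, and none of its genes was at 0. *fbn-1*, a fibrillin-like matrix gene, was lower in replicates 3 and 4 of both groups, with 421, 331, 14.7 and 32.5 CPM in *smrd-1 Δ#1*, against 579, 476, 167 and 194 CPM in non-Tg, at a log2 fold change of -0.82 (standard error 0.957, edgeR adjusted p = 0.789). *let-653*, a zona pellucida domain gene of transient matrix, was at -0.60 (edgeR adjusted p = 0.768). edgeR called 0 of the 10 and the median log2 fold change was -0.25.

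**Figure D5:**
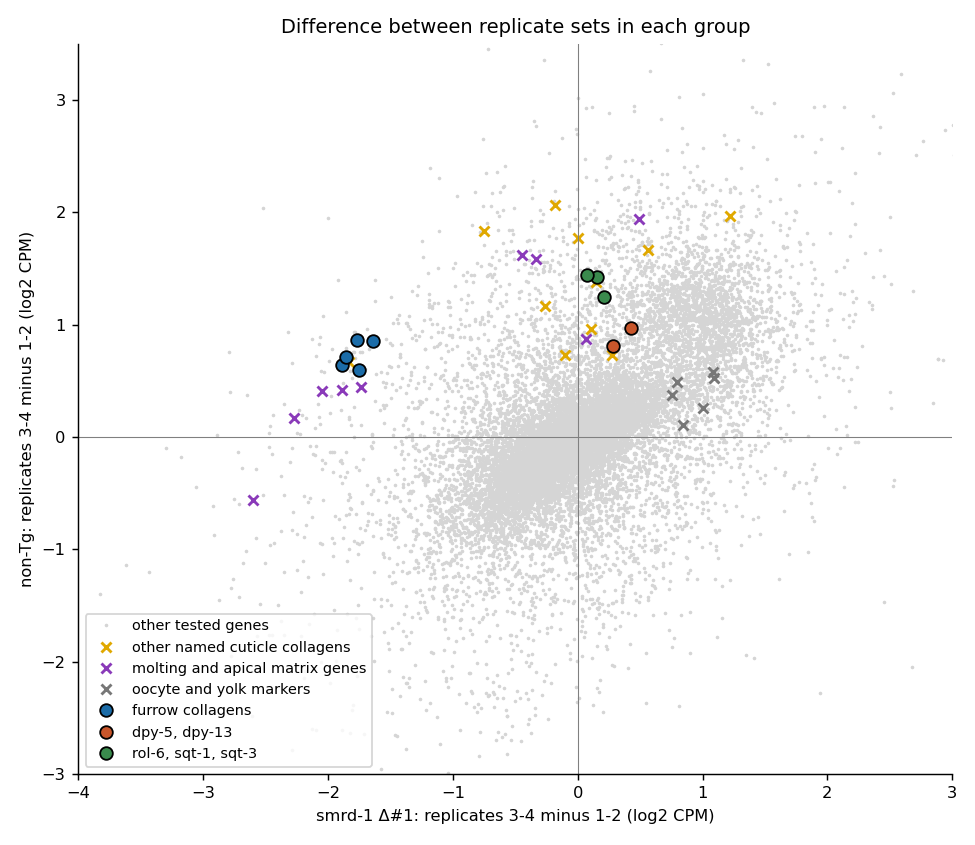
Difference in mean log2 CPM between replicates 3 and 4 and replicates 1 and 2 within *smrd-1 Δ#1* (horizontal axis) and within non-Tg (vertical axis), with 1 point per gene and 31 genes outside the range drawn. The furrow collagens lie at upper left, from -1.64 to -1.88 and from 0.60 to 0.87, beside several molting genes, while *rol-6*, *sqt-1* and *sqt-3* lie near 0 on the horizontal axis and at 1.25 to 1.44 on the vertical.

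The summed markers of the adult stage and of oocytes and yolk divided by replicate set in *smrd-1 Δ#1* and not in non-Tg. Adult cuticle markers (3 genes, none at 0) summed to 562, 644, 1744 and 1354 CPM in *smrd-1 Δ#1*, against 571, 308, 739.8 and 401 CPM in non-Tg libraries. Among them the adult collagen *col-19* was at a log2 fold change of 1.20 (standard error 0.446, edgeR adjusted p = 0.598) and *col-62* at 0.52 (edgeR adjusted p = 0.646). All 6 oocyte and yolk markers had a log2 fold change above 0, as had 8167 of the 16808 genes tested. The sum of these markers was 4566, 5725, 11730 and 7940 CPM in *smrd-1 Δ#1*, against 4345, 1909, 4719 and 2305 CPM in non-Tg. Most of that sum came from the yolk genes *vit-2* and *vit-6*, with 1974 and 2373 CPM in *smrd-1 Δ#1* replicate 1. Taken singly, *oma-1* was higher without overlap in non-Tg replicates 3 and 4 than in 1 and 2 (32.6% of all genes tested). Within *smrd-1 Δ#1*, replicates 3 and 4 had the least furrow collagen RNA and the most oocyte, yolk and adult cuticle RNA. Within non-Tg the sums of the replicate sets overlapped, and replicate 2, with the least furrow collagen RNA of that group, also had the least oocyte, yolk and adult cuticle RNA.

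The 4 epidermal markers summed to 241, 274, 143 and 185 CPM in *smrd-1 Δ#1*, against 181, 160 (replicate 2), 249 and 294 CPM in non-Tg. The sum was lowest in *smrd-1 Δ#1* replicate 3 as for the furrow collagens, but its genes did not run alike. *wrt-2* swung most, from 41.3 CPM in that library to 159 CPM in non-Tg replicate 4. *lin-26* (55.6 CPM) and *che-14* (16.8 CPM) were lowest in non-Tg replicate 2. *elt-3* was lower in replicates 3 and 4 of both groups than in replicates 1 and 2. The 3 body wall muscle markers were lower in replicates 3 and 4 of both groups, at 4515 to 4755 CPM in *smrd-1 Δ#1* and 5861 to 6105 CPM in non-Tg, against 8536 to 9299 CPM and 8946 to 9477 CPM in replicates 1 and 2. The sums for pharynx, intestine and neurons were lower there too, though not every gene in them was. For pharynx they were 268 to 284 CPM and 313 to 345 CPM, against 602 to 769 CPM and 596 to 908 CPM. Of the 16808 genes tested, 5942 were lower without overlap in *smrd-1 Δ#1* replicates 3 and 4, and 5590 in those of non-Tg. The 4 sperm markers ran the other way, reaching 128 CPM in *smrd-1 Δ#1* and 91.4 CPM in non-Tg replicates 3 and 4, against at most 62.3 CPM and 51.3 CPM in replicates 1 and 2. That direction was seen without overlap in 35.3% of all genes tested in *smrd-1 Δ#1* and 32.6% in non-Tg. The part of these markers in the collagen levels was not tested.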

How the data were processed

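RNA of whole *C. elegans* was measured in 8 libraries, grouped by sample title (4 smrd1Null, here *smrd-1 Δ#1*, and 4 Control, here non-Tg). Paired-end reads had been aligned by the authors with STAR to WBcel235, and featureCounts 2.0.1 gave the raw, unscaled counts per gene that were deposited. The header of that table names annotation release 112, the methods name a later one, and positions here come from release 115. Mates were counted singly, strand was not used, and reads mapping to several places or genes were not counted, which lowers genes that overlap others. The authors' DESeq2 table (mean of normalized counts, log2 fold change, its standard error, Wald score and p-values) served only to find the members by gene name.

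Counts were tested with edgeR 4.0.16 (TMM, filterByExpr by group, quasi-likelihood test, Benjamini-Hochberg over all genes tested, threshold 0.05) in R 4.3.3, and summarised with Python 3.11.15. Standard errors are the log2 fold change over the square root of the F statistic. Replicate log2 levels are log2 CPM with a prior count of 2. The test was tried on simulated counts with planted changes. The alternatives were DESeq2 1.42.0, its size factors in edgeR, 2 other count filters, the replicate number as a block, the replicate sets as a covariate, fold changes within each set and each library left out in turn. Adjusted p-values over the alternatives leave out the fits within a set, from which only fold changes were read. Beside the members and *smrd-1*, genes were named where they had the 2 lowest unadjusted p-values of their list, or were among the 3 genes nearest to the members' mean profile. Members and lists were chosen with earlier results of these data known.

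After group means were removed, same-numbered libraries correlated across genes at 0.357, 0.221, 0.489 and 0.390 for numbers 1 to 4, so the numbers were taken as a possible pairing, although no label gives a source for it. Libraries of different numbers in the same replicate set correlated as well (0.516 for *smrd-1 Δ#1* replicate 1 with non-Tg replicate 2).

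At these totals 3 counts correspond to 0.0371 to 0.0422 CPM. Floors cover counting error only.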

Additional observations from a re-analysis of the deposited data

How the results depend on the processing

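No body-shape collagen was called under any alternative fitted to all 8 libraries or to 7, and the adjusted p-values of the 10 lay between 0.502 and 1.0 over them. The replicate block left the count of called genes at 26 and changed no call among the named genes, and with it *rol-6* had a log2 fold change of 0.086, as under the replicate set covariate (0.085), against -0.040 without. With 1 library left out in turn the sign changed for *dpy-3* (-0.61 to 0.023), *dpy-5* (-0.13 to 0.24), *dpy-8* (-0.57 to 0.086), *dpy-13* (-0.14 to 0.20), *rol-6* (-0.26 to 0.25), *sqt-1* (-0.15 to 0.39), *sqt-3* (-0.21 to 0.31) and *Y65B4BM.3* (-0.29 to 0.13). The count of called genes over the whole table, 26 by edgeR, was 7 to 14 with any 1 of the 8 libraries left out, 275 with DESeq2 and 929 with the replicate sets as a covariate, and the cause was not tested. Of the 63 genes in the lists, DESeq2 called 1 (*dpy-17*), where it called 1.34% of all genes it tested. The covariate fit called 3 (*dpy-17*, *gst-4* and *elt-3*), where it called 5.53% of all genes tested. *smrd-1* stayed between 0.77 and 0.85 on the log2 scale with each library left out (edgeR adjusted p from 0.0218 to 0.0574). *dpy-14* did not enter the fit with at least 10 counts in every library. The lowest count of any member in any library was 2340 (*dpy-10*), so the spread between libraries and not depth limits these comparisons.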

Other observations

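The genes nearest to each subset of the body-shape collagens were looked up after the values were seen, and are given as a description over 8 libraries. Closest to the mean of the furrow collagens were *lpr-5* and *lpr-4*, which encode lipocalin-related proteins, with root mean square differences of 0.033 and 0.043 on the centred log2 scale, where the median of all genes tested was 0.82. *lpr-4* had 279, 312, 62.8 and 116 CPM in *smrd-1 Δ#1*, against 188, 146, 241 and 326 CPM in non-Tg libraries, and its log2 fold change was -0.23 (edgeR adjusted p = 0.876). Both were nearer to that mean than any of the 5 furrow collagens, which lay at 0.054 to 0.096.

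Closest to the mean of *dpy-5* and *dpy-13* was *dpy-4*, another collagen known from dumpy mutants, at 0.072. It ran between 1105 and 1577 CPM in *smrd-1 Δ#1*, against 708 to 1554 CPM in non-Tg libraries. Closest to *rol-6*, *sqt-1* and *sqt-3* was *sqt-2*, a further squat collagen, at 0.051, with 514, 667, 564 and 745 CPM in *smrd-1 Δ#1*, against 314, 341, 791.5 and 920.1 CPM in non-Tg libraries. Their log2 fold changes were 0.099 and 0.073, and edgeR called neither.

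The 10 body-shape collagens together held 0.478%, 0.568%, 0.483% and 0.632% of the counts in *smrd-1 Δ#1* replicates 1 to 4, against 0.305%, 0.370%, 0.691% and 0.812% in non-Tg replicates 1 to 4.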
